A study of Rattus norvegicus with 50 samples.

Results

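Lactoperoxidase, the dual oxidases and pendrin form an oxidant defence of the airway surface. The genes described here are Lpo, Duox1, Duox2, Duoxa2, Slc26a4, Cftr and Slc5a5, found as all gene spots of a whole-genome rat expression array that carry one of these names. All 7 were measured and all 7 passed the filter on low signal, among 25208 genes tested. They were picked with the difference between exposed and control rats already known, so that difference is given below as a description, with no p printed.

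The rats were male F344 animals, 12 weeks old per the labels. Exposed rats breathed an aerosol of TiO2 P25 nanoparticles at 10 mg/m3 by the nose for 6 hours a day on 5 days a week, over 4 weeks, and control rats breathed filtered air. The accessory lobe of the lung was taken immediately after the last exposure (D0) and after 3 (D3), 28 (D28), 90 (D90) and 180 days (D180), from 5 control and 5 exposed rats at each day, so that 10 groups and 50 arrays, one for each rat, were available. One strain, one sex, one dose and one lobe were studied. The lobe was extracted whole, so fewer cells of a type and less RNA per cell cannot be told apart.

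In the airway, the dual oxidases DUOX1 and DUOX2 sit in the apical membrane of epithelial cells and release hydrogen peroxide into the surface liquid. Each needs a maturation factor, DUOXA1 or DUOXA2, to leave the endoplasmic reticulum. Lactoperoxidase, a secreted haem enzyme, uses this peroxide to oxidise thiocyanate to hypothiocyanite, which is toxic to microbes. Thiocyanate reaches the surface liquid through CFTR, the chloride channel mutated in cystic fibrosis, and through pendrin, the anion exchanger encoded by Slc26a4. Slc5a5 encodes the sodium-iodide symporter, best known from the thyroid, where it supplies iodide for hormone synthesis.

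Each signal below is read from a 60-base probe, and the letters of the probes of Lpo, Slc26a4 and both dual oxidase maturation factors show which part of each transcript was measured. They are taken from the array files, 5′ to 3′, with no base set in capitals.
Lpo: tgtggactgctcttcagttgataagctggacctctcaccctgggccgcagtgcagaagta
Slc26a4: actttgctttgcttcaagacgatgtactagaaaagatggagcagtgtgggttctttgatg
Duoxa1: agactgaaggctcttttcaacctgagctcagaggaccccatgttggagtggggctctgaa
Duoxa2: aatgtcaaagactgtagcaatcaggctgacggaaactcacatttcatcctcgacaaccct
The Lpo probe lies at chr10:76099578-76099637 on the minus strand of rn4, the build used in the files, and starts at base 2429 of its transcript. The Slc26a4 probe starts at base 2092 of its transcript and covers chr6:49394773-49395832 on the minus strand. Its 60 letters therefore span 1060 genomic bases, so they come from more than one exon, and they were printed on the array in 10 spots against 2 for each other probe. Duox1 (chr3:109128329-109128388, plus strand), Duox2 (chr3:109059361-109059420, minus strand), Duoxa2 (chr3:109081149-109081208, plus strand) and Duoxa1 (chr3:109082646-109082705, minus strand) are neighbours, and their probes all lie within 69028 bases of chromosome 3. Cftr was read at chr4:44041769-44041828 and Slc5a5 at chr16:19056181-19056240, both on the plus strand. Each of these 2 genes has a second, dimmer probe, and the brighter one was used.

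Upstream sequence was at hand for 6 of the 7 genes, from RefSeq on the GRCr8 build; Duoxa2 was not matched. The 250 bases before the transcript start are printed for Lpo and Slc26a4, the genes with the largest differences between exposed and control rats, with any TATAAA box on the printed strand in capitals.
Lpo upstream: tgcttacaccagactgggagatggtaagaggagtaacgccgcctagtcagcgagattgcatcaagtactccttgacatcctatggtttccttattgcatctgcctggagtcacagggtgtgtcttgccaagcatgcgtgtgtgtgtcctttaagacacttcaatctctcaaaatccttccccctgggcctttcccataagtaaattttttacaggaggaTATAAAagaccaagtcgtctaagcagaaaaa
Slc26a4 upstream: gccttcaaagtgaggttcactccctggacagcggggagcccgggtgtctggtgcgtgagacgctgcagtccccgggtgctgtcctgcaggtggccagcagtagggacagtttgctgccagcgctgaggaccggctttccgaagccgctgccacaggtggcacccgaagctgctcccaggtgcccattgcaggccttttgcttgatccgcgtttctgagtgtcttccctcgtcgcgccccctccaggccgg
The Lpo window is chr10:73123457-73123706 and the Slc26a4 window chr6:53873217-53873466, both on the minus strand. In Lpo the box begins 31 bases before the start, whereas Slc26a4 has none, and TATAAA occurs on either strand in 12.9% of the 33469 windows of this length; this motif was chosen after the sequences were seen. Both strands of the windows of Lpo, Slc26a4, Duox1 and Cftr were also searched for STAT6-type letters, which are TTC and GAA with 4 bases between them (6.25% of all windows), for the STAT-type letters TTCNNNGAA (7.67%) and for the AP-1 letters TGACTCA or TGAGTCA (4.05%), and held none of them.

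Signals are given on the log2 scale after quantile normalization, so a difference of 1 is a doubling, and levels are compared only within a gene. The 50 arrays had a median processed signal of 198 to 473 before normalization, and 68.7% to 84.5% of their gene spots were well above background, and arrays of one group correlated at 0.973 to 0.996 across genes. No member was saturated on any array. A gene was called when it changed by at least 1.5-fold with an adjusted p under 0.05, with limma and Benjamini-Hochberg adjustment over all genes. Among the 7 genes, 4 passed this rule at D0, 3 at both D3 and D28, and 1 at both D90 and D180, each of them higher in exposed rats. Of all genes, 2.77% were called higher at D0, 1.98% at D3, 0.861% at D28, and 0.246% at each of D90 and D180. Since the genes were picked on this contrast, nothing is read from these counts.

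Lpo, the secreted peroxidase, was the member with a large difference at every day. At D0 the 5 control rats read 7.42, 5.97, 6.55, 7.34 and 7.25 and the 5 exposed rats 9.57, 9.38, 9.70, 9.34 and 9.57. At D3 the controls read 6.53, 5.35, 7.64, 7.14 and 6.31 and the exposed rats 9.92, 10.21, 9.69, 9.53 and 9.98. At D28 the controls read 6.14, 7.10, 7.28, 6.68 and 7.28 and the exposed rats 10.01, 10.55, 9.65, 9.99 and 10.69. Every exposed rat stood above every control rat at these days, and the controls were spread more widely than the exposed rats, most of all at D3. At D90 the controls read 7.18, 7.61, 7.41, 7.27 and 7.52 and the exposed rats 9.20, 9.41, 9.05, 10.28 and 9.93. At D180 the controls read 7.13, 6.75, 7.31, 7.95 and 7.32 and the exposed rats 9.56, 9.78, 9.38, 9.37 and 10.15. The groups again did not overlap, 180 days after the last inhalation.

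The difference in Lpo between exposed and control means was 2.60 ± 0.30 (log2, SE from the fit over all 50 arrays) at D0 and 3.27, 3.28, 2.18 and 2.36 at the following days, with the same SE at each day. These values correspond to 6.07, 9.66, 9.70, 4.52 and 5.12-fold. With the background corrected by normexp the folds were 4.03, 5.65, 6.30, 3.39 and 3.69, so their size depends on how the dim control signal was treated, while the direction was the same. The Lpo effect changed from D0 by 0.67 ± 0.42 (SE) at D3, and by 0.68, -0.43 and -0.25 at the days after it. All of these changes from D0 lie within 2 SE of 0. The later days were not compared with each other, and the difference was 3.28 at D28 and 2.18 at D90.

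Part of the spread of Lpo in control rats went with the slide, the glass plate that carries several arrays. The 4 control arrays on slide 2 read 5.35 to 6.31, and the 21 control arrays on the other slides read 6.53 to 7.95. On each of the 7 slides the exposed rats averaged higher than the controls, by 2.13 to 3.89, and in every pairing of slide and day that held both groups the difference lay between 1.83 and 4.15. The arrays of D0, D3 and D28 lay on slides 1 to 4 and those of D90 and D180 on slides 5 to 7, except one exposed rat of D3 on slide 7, so levels of the early and the late days cannot be told apart from the slides. With slide as a block the differences were 2.68, 3.16, 3.08, 2.18 and 2.46 from D0 to D180.

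**Figure D1:**
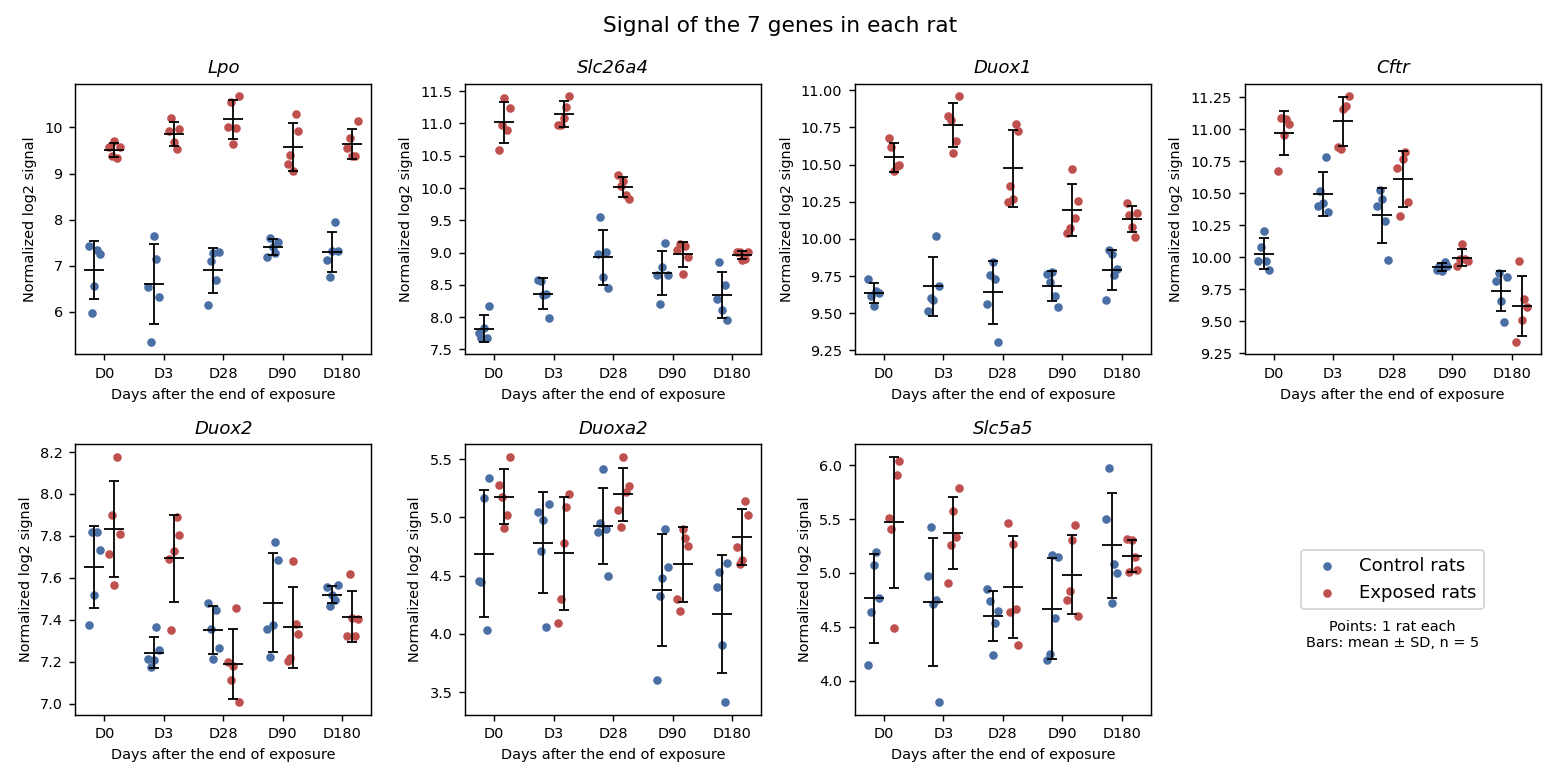
Normalized log2 signal of each of the 7 genes (vertical axes, each with its own range) by days after the end of exposure, with one point for each rat and bars for the mean ± SD of 5 rats. Exposed rats (red) stand above all control rats (blue) at every day for Lpo and Duox1, at D0, D3, D28 and D180 for Slc26a4, and at D0 and D3 for Cftr.

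Among the dual oxidases, Duox1 was higher in exposed rats at every day and Duox2 was not. In Duox1 the controls read 9.73, 9.62, 9.55, 9.65 and 9.64 at D0 and the exposed rats 10.68, 10.62, 10.45, 10.49 and 10.50. At D3 the controls read 9.52, 9.60, 9.59, 10.02 and 9.68 and the exposed rats 10.83, 10.80, 10.58, 10.66 and 10.96. The 2 groups were clearly apart, the nearest pair at D3 being 10.02 and 10.58. At D28 the controls read 9.56, 9.76, 9.85, 9.73 and 9.31 and the exposed rats 10.25, 10.35, 10.27, 10.78 and 10.73. At D90 the controls read 9.76, 9.71, 9.78, 9.62 and 9.54 and the exposed rats 10.04, 10.07, 10.47, 10.14 and 10.26. At D180 the controls read 9.59, 9.92, 9.90, 9.76 and 9.80 and the exposed rats 10.24, 10.16, 10.08, 10.02 and 10.17. The gap narrowed with time but the groups never overlapped.

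The Duox1 difference was 0.91 ± 0.10 (log2, SE) at D0 and 1.08, 0.83, 0.51 and 0.34 at the days that followed, or 1.88, 2.12, 1.78, 1.43 and 1.27-fold. It was thus under the 1.5-fold limit at D90 and D180. Relative to D0 the effect had changed by -0.40 ± 0.14 (SE) at D90 and by -0.57 at D180. The control level hardly moved, with means between 9.64 and 9.79.

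Duox2 differed between exposed and control rats by 0.18 ± 0.11 (log2, SE) at D0 and 0.45 at D3, and by -0.16, -0.12 and -0.10 afterwards. The largest difference was at D3, where controls read 7.21, 7.17, 7.21, 7.36 and 7.26 and exposed rats 7.69, 7.35, 7.73, 7.89 and 7.80. There 4 of the 5 exposed rats were above all controls, and the fold was 1.37. At the other days the exposed rats read 7.01 to 8.18 and the controls 7.21 to 7.82, and the groups overlapped. At D28 and at D180, 4 of the 5 exposed rats were below all controls. The remaining exposed rat of D180 was above all controls.

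Duoxa2, the maturation factor paired with Duox2, was near background, with its probe well above it on 34 of 50 arrays. Control rats read 3.41 to 5.42 and exposed rats 4.09 to 5.52 over all days. The differences were 0.49 ± 0.25 (log2, SE), -0.09, 0.27, 0.22 and 0.66 from D0 to D180, and the groups overlapped at each day. With normexp none of them was over 0.15, so no size can be put on them.

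Slc26a4, which encodes pendrin, had the largest difference of the 7 genes at D0 and lost most of it by D90. At D0 the controls read 7.75, 7.68, 7.84, 7.68 and 8.17 and the exposed rats 10.58, 10.98, 11.40, 10.90 and 11.23. At D3 the controls read 8.57, 8.55, 8.34, 8.36 and 7.98 and the exposed rats 10.97, 10.98, 11.09, 11.26 and 11.43. Both groups were tight and lay over 2 log2 units apart. At D28 the controls read 8.99, 9.56, 8.63, 9.01 and 8.46 and the exposed rats 10.20, 10.03, 10.11, 9.89 and 9.83. At D90 the controls read 8.65, 8.20, 8.77, 9.15 and 8.65 and the exposed rats 9.04, 9.13, 8.67, 9.10 and 8.93. At D180 the controls read 8.28, 8.86, 8.11, 8.49 and 7.95 and the 5 exposed rats lay close together between 8.88 and 9.01. The groups overlapped at D90 alone, and at D180 the lowest exposed rat, at 8.88, was just above the highest control, at 8.86. The D180 difference did not pass the call rule, but did without control rat 2 (0.75) and under the stricter filter on dim probes.

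The Slc26a4 difference was 3.20 ± 0.17 (log2, SE) at D0, and 2.78, 1.08, 0.29 and 0.62 at the later days in turn, or 9.16, 6.88, 2.12, 1.22 and 1.54-fold. Compared with D0 the effect had changed by -0.41 ± 0.24 (SE) at D3, and then by -2.11, -2.91 and -2.58. From D0 to D28 both sides contributed to this closing gap. The exposed mean went from 11.02 ± 0.31 (SD, n = 5) at D0 to 10.01 ± 0.15 at D28, while the control mean went from 7.82 ± 0.20 to 8.93 ± 0.42. At D90 the exposed mean was 8.97 ± 0.19, but these arrays lay on other slides than those of D0 and D28. The level at D90 therefore cannot be told apart from the slides.

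The control values of each day are one side of the difference on which the genes were picked, so the differences between control days are also given as a description, with no test. Slc26a4 was higher in control rats at D28 than at D0 by 1.10 ± 0.17 (log2, SE), which is past the call rule. Over all genes, 2.49% were past it between these 2 control groups. From D0 to D3 the controls differed by 0.54, under the 1.5-fold limit, and from D3 to D28 by 0.57. From D90 to D180 the control difference was -0.35.

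Cftr, the chloride channel, was higher in exposed rats early and approached the controls by D90. At D0 the controls read 9.97, 10.08, 10.21, 9.97 and 9.90 and the exposed rats 10.67, 11.09, 10.96, 11.08 and 11.04. At D3 the controls read 10.40, 10.52, 10.42, 10.79 and 10.35 and the exposed rats 10.86, 10.85, 11.16, 11.18 and 11.26. All exposed rats were above all controls at both days, by a small margin at D3. The difference was 0.94 ± 0.11 (log2, SE) at D0, and then 0.57, 0.28, 0.07 and -0.12. At D3 the fold was 1.48, just under the limit. With slide as a block the D3 difference was 0.62 and passed the rule.

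The second Cftr probe, at chr4:44038828-44038887, differed by 0.97, 0.26, 0.12, 0.45 and -0.44 in order of day. It was well above background on 46 of 50 arrays, and thus gave the same size at D0 and other sizes later. In control rats the Cftr mean was higher at D3 than at D0 by 0.47 ± 0.11 (log2, SE), and that of Duox2 was lower, with a difference of -0.41 ± 0.11. Both differences were under the 1.5-fold limit, and 2.33% of all genes were past the call rule in this control comparison. No member was past it between control rats at D3 and D28 (0.639% of all genes) or at D90 and D180 (0.0198%). Among these control differences, that of Slc26a4 was 0.57 from D3 to D28 and -0.35 from D90 to D180. That of Slc5a5 was 0.59 ± 0.27 (log2, SE) from D90 to D180. Lpo and Duox1 were past the rule in none of the 4 comparisons of control days, with differences of -0.31 to 0.30 and -0.04 to 0.11.

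Slc5a5, the iodide symporter, was near background, as 32 of 50 arrays read it well above. Control rats read 3.80 to 5.97 and exposed rats 4.33 to 6.04. The differences were 0.71 ± 0.27 (log2, SE), 0.64, 0.27, 0.32 and -0.10 from the first day to the last, and the groups overlapped at each day. In the exposed group at D28 the probe was well above background on 0 of 5 arrays. The second probe, at chr16:19053093-19053152, differed by 0.16, 0.67, 0.38, -0.01 and -0.15.

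**Figure D2:**
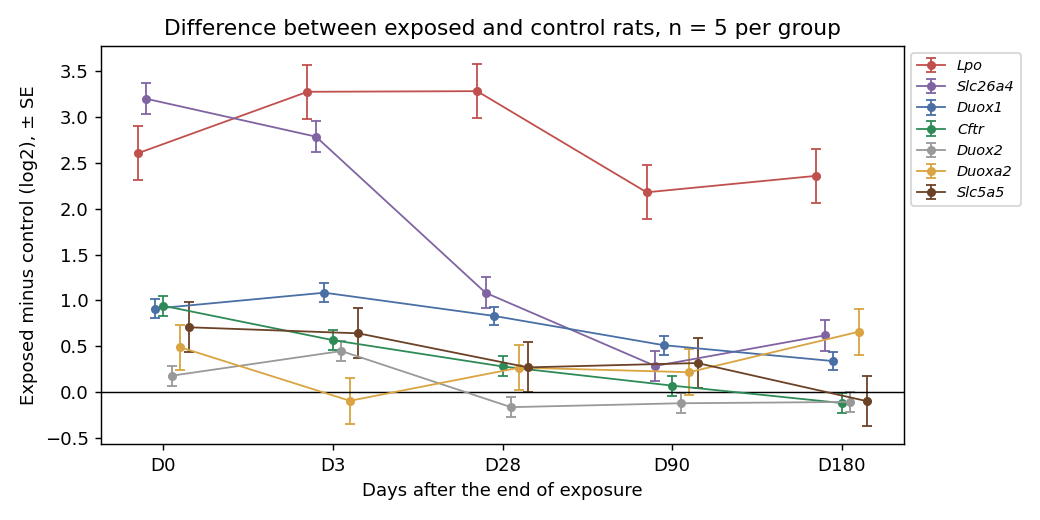
Difference between the means of 5 exposed and 5 control rats (vertical axis, log2, ± SE of the fit) for the 7 genes by days after the end of exposure. Lpo stays between 2.18 and 3.28 at all 5 days, Slc26a4 goes from 3.20 at D0 to 0.29 at D90, Duox1 from a highest value of 1.08 at D3 to 0.34 at D180, and the others end within 1 log2 unit of 0.

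Counted by overlap, all 5 exposed rats stood above all 5 controls in 4 of the 7 genes at D0 and D3, in 3 at D28, in 2 at D90 and in 3 at D180. The share of all genes with this separation was 4.76%, 3.36%, 2.23%, 2.2% and 2.77%. As above, these counts follow from how the genes were picked.

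The order of the 10 group means shows how the members differ among themselves. In Lpo the 5 exposed groups took the top 5 places, from 10.18 at D28 to 9.51 at D0, and the highest control mean was 7.40. Neighbours among the exposed groups lay within 0.31 of each other, under the residual SD of 0.47. In Duox1 the 5 exposed groups were also the top 5, with D3 first at 10.77 and D180 last at 10.13. In Slc26a4, D3 and D0 led at 11.15 and 11.02, a gap under the residual SD of 0.27, and the exposed means of D90 (8.97) and D180 (8.96) stood next to the control mean of D28 (8.93). Places of early days against late days cannot be told apart from the slides, as described for Lpo.

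The genes whose 10 group means were most like those of each of the 3 members are given by Pearson's r over the 10 groups, as a description. For Lpo these were Hadhb, a mitochondrial fatty acid oxidation enzyme (r = 0.980), Ttyh2, a tweety family membrane protein (0.975), and Kng1l1, a kininogen (0.975). Hadhb and Ttyh2 followed Lpo in shape and not in size, with differences between exposed and control rats of 0.16 to 0.36 and 0.27 to 0.65. Kng1l1, at 1.82 to 2.60, came nearer to Lpo, at 2.18 to 3.28. For Slc26a4 they were Fam55b (0.992), C4bpa, a complement inhibitor (0.990), and Cfb, complement factor B (0.982). C4bpa differed by 1.60 at D0 and 0.28 at D90. For Duox1 they were Col9a2, a collagen IX chain (0.994), Dok3, a docking adaptor (0.986), and Muc20, a membrane mucin (0.985), and its maturation factor Duoxa1 came in the sixth place (0.981). Duox1 and Duox2, the neighbouring oxidases, had an r of 0.31 across the same 10 means.

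Of the other genes of the pathway, 62 were measured; Il17rc was not analysed here. Of the 62, 8 were called at D0 (6 over-expressed and 2 under-expressed), 8 at D3 (4 and 4), 2 at D28 (both over-expressed) and none at D90 or D180. Over all genes, 4.28%, 3.48%, 1.33%, 0.381% and 0.325% were called at these days. The median difference of the list was 0.07, 0.03, 0.05, 0.02 and 0.05 from D0 to D180, against -0.01, -0.01, 0.00, 0.00 and 0.00 over all genes. The list was chosen with earlier results of these data known, so nothing is read from these counts and medians. With no fold limit, 23, 18, 6, 0 and 1 of the 62 passed at these days in turn. The shares of all genes above hold for the rule with the fold limit. The share without it is not given here, so nothing is read from these last counts.

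Duoxa1, the maturation factor paired with Duox1, was over-expressed at D0, D3 and D28. At D3 the controls read 8.65, 8.56, 8.95, 9.24 and 8.66 and the exposed rats 9.91, 9.83, 9.70, 9.53 and 9.87. The rats did not overlap at D0 or D3, and 4 of 5 exposed rats were above all controls at D28. The difference was 0.67 ± 0.13 (log2, SE; limma adjusted p = 0.00018) at D0, 0.96 (adjusted p = 5.6e-07) at D3, 0.61 (adjusted p = 0.0023) at D28, and 0.35 and 0.19 at the last 2 days. With normexp the D0 difference was 0.58 and was not called. The D28 difference is close to the fold limit and was not called with normexp (0.51), in the deposited normalized table (0.54), in a fit of the D28 arrays alone (adjusted p = 0.21), with slide as a block (0.58) or without control replicate 4 or exposed replicates 4 or 5 of D28.

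Of the 10 dual oxidase and NADPH oxidase genes of the list, Duoxa1 included, 5 were called at any day, 4 of them upward. The share of all genes called at any day is not given here. Nothing is therefore read from this count or from those of the other groups of the list below. Noxo1 and Noxa1, the organiser and activator subunits of the epithelial oxidase NOX1, changed most. For Noxo1 the controls at D0 read 9.39, 8.80, 8.44, 9.58 and 9.58 and the exposed rats 11.24, 11.65, 11.37, 11.88 and 11.27. It rose by 2.33 ± 0.24 (log2, SE; limma adjusted p = 3.1e-10) at D0 and by 2.04 (adjusted p = 1.4e-08) at D3, with no overlap at either day. From D28 on the differences were 0.20, -0.38 and -0.18. Part of this came from the controls, whose Noxo1 was higher at D28 than at D0 by 1.11 ± 0.24 (adjusted p = 0.0013).

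Noxa1 rose by 1.11 ± 0.15 (log2, SE; limma adjusted p = 5.5e-07) at D0 and by 1.05 (adjusted p = 2.9e-06) at D3. The controls at D0 read 8.92, 8.72, 8.66, 8.84 and 8.83 and the exposed rats 9.93, 9.97, 9.70, 10.09 and 9.84, far apart. Nox1 itself, their catalytic partner, was well above background on 21 of 50 arrays and was not called. Ncf4, a cytosolic subunit of the phagocyte oxidase, rose by 0.61 ± 0.07 (adjusted p = 5.2e-09) at D0 and by 0.60 at D3, values close to the 1.5-fold limit. Cybb, the catalytic subunit of that oxidase, differed by 0.17 at D0 and was not called. Nox4, a constitutively active oxidase, fell by 0.70 ± 0.16 at D0 (adjusted p = 0.0019), but by 0.34 with normexp, which is under the fold limit, and it was not called in a fit of the D0 arrays alone (adjusted p = 0.11).

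**Figure D3:**
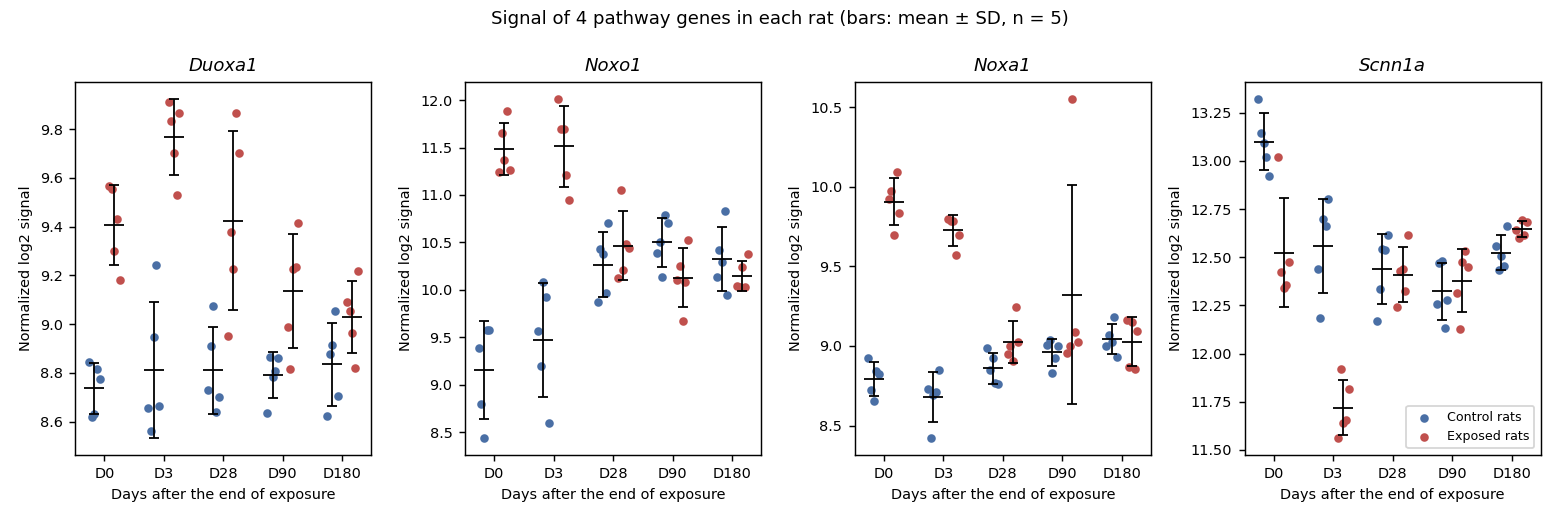
Normalized log2 signal of Duoxa1, Noxo1, Noxa1 and Scnn1a (vertical axes, each with its own range) by days after the end of exposure, with one point for each rat and bars for the mean ± SD of 5 rats. Noxo1 and Noxa1 are apart at D0 and D3 and overlap from D28 on, one exposed rat at D90 reads 10.55 in Noxa1, and Scnn1a is lower in exposed rats at D3.

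The exposure effect on 4 of the 62 genes differed between D0 and a later day. For Noxo1 it had changed by -2.13, -2.70 and -2.51 ± 0.33 (log2, SE) at D28, D90 and D180, and for Noxa1 by -0.95, -0.75 and -1.13 ± 0.22. Scnn1a differed at D0 by -0.58 ± 0.11, under the fold limit and with 4 of 5 exposed rats below all controls. Its effect changed upward, by 0.63 at D90 and 0.70 at D180 (± 0.15). The D90 change was not called in a fit of the D0 and D90 arrays alone (limma adjusted p = 0.059). Nor was it called without control replicate 1 of D0 or control replicate 4 of D90 (0.58 in both). Scnn1g differed at D0 by -0.41 ± 0.08, with all 5 exposed rats below all controls. Its effect changed by 0.61 ± 0.12 at D180, or by 0.58 with slide as a block, which was not called. The D180 change was also not called without control replicate 3 or exposed replicate 2 of D0, or replicate 4 of either group of D180. The control level of Scnn1a fell from D0 to D28 by 0.66 ± 0.11 (adjusted p = 3.6e-05), and that of Scnn1g differed between these days by -0.38 ± 0.08, under the fold limit. The exposed mean of Scnn1a was 12.52 at D0, 12.38 at D90 and 12.65 at D180, where the late days lay on other slides than D0. None of the 62 was called for a change from D0 to D3, where 0.678% of all genes were. At the later days 3.23%, 4.84% and 6.45% of the list were called, against 1.61%, 2.17% and 2.24% of all genes. As the list was chosen with earlier results known, nothing is read from these shares.

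The other haem peroxidases were not called at any day, and among them Mpo of neutrophils was well above background on 17 of 50 arrays and Epx of eosinophils on 1. None of the 11 genes that remove peroxide (catalase, 4 glutathione peroxidases and 6 peroxiredoxins) was called. Their differences lay between -0.48 and 0.44, the lowest in Gpx3 at D0 and the highest in Prdx5 at D3.

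Among 13 other anion exchangers and channels, 1 was called at any day. Slc26a3, an intestinal chloride-bicarbonate exchanger of the pendrin family, fell by 1.20 ± 0.22 (log2, SE; limma adjusted p = 8.5e-05) at D3, with the probe well above background on 3 of 5 exposed arrays, and by 0.61 with normexp. Slc26a9 and Ano1, other chloride channels of the airway, were not called. Of the 8 genes of airway fluid and pH, 2 were called at any day. Scnn1a and Scnn1g, the alpha and gamma subunits of the epithelial sodium channel that absorbs airway liquid, fell at D3 by 0.84 ± 0.11 (adjusted p = 2.4e-07) and 0.74 ± 0.08 (adjusted p = 9.1e-09), with all 5 exposed rats under all 5 controls in both. Scnn1b, the beta subunit, differed by 0.13 and was not called.

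Of 16 upstream cytokines, receptors and factors, 4 were called at any day, and the signals of Il13, Il17a and Il22 were near background. Il13, the type 2 cytokine, rose by 1.90 ± 0.43 (log2, SE; limma adjusted p = 0.0012) at D0, where the controls read 4.52, 2.44, 2.55, 4.42 and 3.17 and the exposed rats 6.11, 4.54, 4.25, 5.90 and 5.80. One exposed rat lay within the controls, and the probe was well above background on 1 of 5 control and 5 of 5 exposed arrays. With normexp the difference was 0.73. Il17a passed at D28 (adjusted p = 0.018), higher in exposed rats, with the probe well above background on 0 of 5 control arrays and 1 of 5 exposed arrays. Il22 passed at D0 (adjusted p = 0.022) with no array of either group well above background, so no fold is given for either cytokine. Il13ra2, the decoy receptor of IL-13, fell by 0.73 ± 0.25 at D0 (adjusted p = 0.043) and by 0.85 at D3 (adjusted p = 0.019), but by 0.21 and 0.38 with normexp, which are not called. None of these 4 genes was called at these days in a fit of the days compared alone. Neither Il4r, Il13ra1, Stat6 nor Stat3 was called.

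Markers of cell types that could carry these genes were set beside them. Among 7 airway secretory markers measured, Bpifb1, a secreted airway defence protein, was called, rising by 2.62 (limma adjusted p = 8.3e-11) at D0, 2.37 at D3, 1.30 at D28 and 1.26 at D90. Without exposed rat 3, which read 13.90, the D90 difference was 0.80 and was still called, whereas it was not in a fit of the D90 arrays alone. The mean level of the 7, Bpifb1 included, was 12.4 to 13.3 in controls and 13.2 to 13.6 in exposed rats at D0. At D180 it was 12.9 to 13.2 and 13.0 to 13.3. The other markers went both ways at D0, with Scgb1a1 at -0.27, Scgb3a1 at -0.11 and Pigr at -0.07. Scgb3a2 differed by 0.49 (limma adjusted p = 0.00066), under the fold limit, and Bpifa1 by 0.77 (adjusted p = 0.34). Muc5ac, at 0.30, was well above background on 1 of 50 arrays. No ciliated (5 genes), basal (4), serous gland (4), alveolar type 2 (4) or general epithelial (5) marker was called at any day. The alveolar type 2 marker Lamp3 differed by 0.58 at D0 (limma adjusted p = 4.6e-05), just under the fold limit. Sftpc, Sftpb and Abca3 differed at D0 by 0.04, -0.07 and 0.07, so most of the D0 difference in the mean below came from Lamp3. The mean level of the 4 alveolar type 2 markers was higher in all exposed rats than in all controls at D0, D3, D28 and D90, by 0.16, 0.14, 0.14 and 0.09 between the means, with controls at 16.54 to 16.63 and exposed rats at 16.69 to 16.84 at D0. That of the general epithelial markers was lower in all exposed rats at D3 alone, at 13.12 to 13.31 against 13.34 to 13.46. The means of the ciliated, basal and serous gland markers overlapped at every day. Of 3 ionocyte markers, Atp6v0d2 rose at D0 by 1.21 (limma adjusted p = 5.7e-07) and at D28 by 0.63. The D28 call was lost when control rat 3 or 5 or exposed rat 3, 4 or 5 was left out. Ascl3, well above background on 45 of 50 arrays, was not called. It differed by -0.44, -0.44, -0.37, 0.02 and 0.03 from D0 to D180. Foxi1, the defining factor, was well above background on 16 of 50 arrays. It differed by -0.25, 0.57, 0.49, -0.03 and -0.16 and was not called either. S100a8 and S100a9, carried by granulocytes, rose at D0 by 1.37 and 1.69 and at D3 by 1.56 and 1.68, and S100a9 at D28 by 0.88. Among the other granulocyte markers, the receptors Csf3r and Cxcr2 differed at D3 by 0.51 (adjusted p = 0.026) and 0.45 (adjusted p = 0.042), under the fold limit, and were above background on all 50 arrays, while Elane and Epx were above it on 2 and 1. The mean level of the 8 granulocyte markers did not overlap at D3, with controls at 7.05 to 7.74 and exposed rats at 7.84 to 8.35, and overlapped at the other days. Of 6 thyroid markers, Pax8 was called at D0 (0.60), but not with normexp (0.43) or in the deposited normalized table (0.46), nor without control rat 4 or exposed rat 1, 3 or 5. Pax8 at D0 and Atp6v0d2 and S100a9 at D28 were not called in a fit of the arrays of that day alone. The part of any of these in the differences of Lpo, Slc26a4 and Duox1 was not tested.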

How the data were processed

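Cy3-labelled RNA of 50 rats was read on one-colour Agilent arrays, and the authors deposited scanner output (Feature Extraction 11.0.1.1 per the file headers) with an intensity per spot, already background-corrected in the processed signal, and a table of quantile-normalized median intensity. Here log2 processed signals (62976 spots, 30367 gene probes) were used without flagged spots, averaged per probe and quantile normalized. Probes brighter than 95% of negative control spots on 5 or more arrays were kept (29549), and the brightest probe stood for a gene (25208). Gene symbols are those of the array design; Il4ra was found as Il4r. limma 3.58.1 (R 4.3.3) was fitted with 10 group means over all arrays. On simulated data for D0, 73% of genes changed 2-fold and 89% of those changed 4-fold were recovered. The simulation changed 100 genes by each fold and held no slide effect, so these shares need not hold for the real arrays. Each array is 1 rat, and their number limits the precision.

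The study's methods also name a batch correction whose terms are not given in the sources used here, and it was not applied. The members, the gene lists and the tests were chosen with earlier results of these data known. One result of the pathway list is not reported here, and its gene is left out of the list's counts. Genes named are the 7 members, the list genes called at any day, the genes defining each group of the list, and the 3 genes most like Lpo, Slc26a4 and Duox1. The alternatives were normexp (offset 50), scaling to the 75th percentile, the deposited normalized table, no and a stricter filter, the mean of all probes, slide or replicate block, only the arrays of the days compared, no fold limit, and each array left out.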

Additional observations from a re-analysis of the deposited data

Results flagged for a closer look

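In 9 of 200 groups of 5 rats, over the 7 members, the 12 called list genes and Bpifb1, one rat stood further from the rest than Dixon's criterion allows; chance alone flags about 1 group in 20. Among the members there was 1, Duox2 in exposed rat 2 at D180, at 7.62 with the next at 7.41 (ratio 0.715). Exposed rat 3 at D90 was set apart in both Noxa1 (10.55, the next rat at 9.09, ratio 0.919) and Bpifb1 (13.90 against 11.81, ratio 0.804), while its Lpo, at 9.05, was the lowest of its group. The others were Nox4 in exposed rat 3 at D0 (ratio 0.772) and exposed rat 2 at D180 (0.729), Scnn1a in exposed rat 1 at D0 (13.02 against 12.47, ratio 0.805), Il17a in control rat 1 at D0 (0.874), Il22 in exposed rat 2 at D0 (0.742) and Il13ra2 in control rat 3 at D90 (0.809).

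The exposure effect changed from D0 by the interaction test for 4 list genes. On the log2 scale the change was -2.13, -2.70 and -2.51 for Noxo1 at D28, D90 and D180, -0.95, -0.75 and -1.13 for Noxa1 at the same days, 0.63 and 0.70 for Scnn1a at D90 and D180, and 0.61 for Scnn1g at D180.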

How the results depend on the processing

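The number of members past the call rule moved over 1.5 times under 75th percentile scaling at D3 (5 against 3) and under the stricter filter at D180 (2 against 1). Without single arrays it was 1 to 2 at D180, with 2 without control replicate 2, and the added gene was Slc26a4 in both cases. Between control days, 3 members passed from D0 to D3 with no fold limit. The share of all genes without that limit is not given here, so nothing is read from that count. With the fold limit, leaving out single arrays gave 0 to 1 from D0 to D3 (1 without D0 replicate 5 or D3 replicate 5). From D3 to D28 it gave 0 to 1 (1 without D28 replicate 5).

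Of the list genes, 8 were called at D0, against 4 with normexp, 5 with 75th percentile scaling or the deposited normalized table, 4 with only the arrays of the days compared, 23 with no fold limit, and 5 to 9 without single arrays (5 without exposed replicate 3). At D3 there were 18 with no fold limit against 8. The share of all genes that pass with no fold limit is not given here for any day. At D28 there were 2, against 0 with normexp, with the deposited table and with only the days compared, 1 with the stricter filter or slide as a block, 6 with no fold limit, and 1 to 2 without single arrays. At D180 there was 1 with no fold limit, and 0 to 1 without single arrays. For the change from D0, the counts were 1 at D3 with 75th percentile scaling or slide as a block (0 to 1 without single arrays), 7 at D28 with no fold limit (2 to 4 without single arrays), 1 at D90 with only the days compared and 9 with no fold limit (1 to 4 without single arrays, 1 without control replicate 4 of D90), and 8 at D180 with no fold limit. The change of Noxa1 at D90 was no longer called with normexp (adjusted p = 0.0505), in the deposited table (0.053), with a replicate block (0.052), with only the days compared (0.30) or when any one of 15 of the 20 arrays was left out (0.051 to 0.10), which are all but control replicate 1 and exposed replicates 3 and 5 of D0 and replicate 3 of both groups of D90, and stayed called in the other alternatives. Recomputing the called marker genes was chosen after seeing the data. No member or named list gene that was called changed direction in any alternative.

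Replicate numbers did not pair the rats, as same-numbered control and exposed rats deviated together with correlations from -0.339 to 0.449. With the replicate number as a block, 7 list genes were called at D0, 8 at D3 and 2 at D28, and the counts of members were 4, 3, 3, 1 and 1. Signals of Duoxa2, Slc5a5, Il13, Il17a and Il22 are limited by background.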
